A study of Mus musculus with 8 samples.

Results

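Macrophages that sense bacteria change the set of surface proteins through which they signal to T cells and to other phagocytes. The mRNAs of 8 such proteins, Cd40, Cd80, Cd83, Cd86, Icosl, Cd274, Cd47 and Cd48, were followed here through the first 120 min of an inflammatory stimulus. They were chosen by name, as the rows of the count table with these gene symbols, and make up 8 of its 23143 genes. The data came from RAW264.7 cells, a mouse macrophage line derived from a tumour, treated with lipopolysaccharide (LPS), the cell wall component of Gram-negative bacteria that is sensed by the receptor TLR4. A single culture was left unstimulated (0 min), and 7 cultures received LPS at 100 ng/ml for 15, 30, 45, 60, 75, 90 or 120 min. No gene was altered in any culture, and all cultures belonged to the same line. Each time point had 1 library and therefore no replicate. The labels call the RNA fraction cytoplasmic, whereas the study's text speaks of total RNA.

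T cells need a costimulatory signal besides antigen, and they read it from ligands of the B7 family on the antigen-presenting cell. CD80 and CD86 both bind CD28, which promotes T cell activation, and CTLA-4, which restrains it. ICOSL binds ICOS, and the B7 relative PD-L1, encoded by Cd274, binds the inhibitory receptor PD-1. CD40 is a receptor of the TNF receptor superfamily through which T cells that carry CD40 ligand activate the presenting cell. CD83 is a marker of mature dendritic cells that keeps MHC class II and CD86 on the surface. CD47 binds SIRPα on phagocytes and inhibits engulfment, and CD48 is a ligand of CD2 and CD244.

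Total counts per library ranged from 100250892 to 159077286, so that each of the 8 genes was covered by at least 171 reads in each library. Values were normalized by median-of-ratios size factors. The share of counts on the ribosomal RNA precursor Rn45s ranged from 8.18 to 20.5% and was highest in the 45, 75 and 90 min libraries, at 16.6, 20.5 and 15.8%. All 8 macrophage markers had reads in all libraries, with a summed level between 5750 and 7090 cpm (counts in every 1000000 of the library). The summed level was 0.719 to 1.34 cpm for 6 T cell markers, of which Lck had 69 to 157 reads and Cd3d 5 to 13 in each library while Cd3g had none and Cd3e had 2 in all, and 0.18 to 0.401 cpm for 5 B cell markers, of which Pax5 had none. It was 5.48 to 11.2 cpm for 5 dendritic cell markers, of which Itgax had 425 to 1462 reads, Zbtb46 75 to 238, Xcr1 43 to 143, Ccr7 1 to 16 and Flt3 0 to 2 in each library, and at most 0.00763 cpm for 5 fibroblast markers. Of the dendritic cell markers Xcr1 was higher at 120 min, with 58 reads at 0 min and 143 at 120 min (2.34-fold, 1.71 to 3.23), and its part in the results was not tested.

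Of the 8 mRNAs, 6 were higher at 120 min than at 0 min, by 2.34-fold to 12.3-fold, and the remaining pair, Cd86 and Cd48, was not called. They were not called from the same time: Cd83 was called higher from 30 min on, Icosl and Cd274 from 45 min on, Cd40 and Cd80 from 60 min on, and Cd47 from 90 min on. A gene was called when its log2 ratio to 0 min was beyond 0.5 and the unadjusted p-value of an exact negative binomial test was under 0.05. The first calls of Icosl, Cd274, Cd80 and Cd47 lay near these limits, with log2 ratios of 0.74 to 0.84. Their p-values in that exact negative binomial test were 0.0211 to 0.0386, and none of these ratios reached a log2 limit of 1. The first call is not the start of a rise. Cd40 (1.35-fold, 95% counting interval 1.17 to 1.57) and Cd80 (1.36-fold, 1.22 to 1.51) were already beyond counting error at 45 min, and Cd47 (1.38-fold, 1.32 to 1.44) at 75 min. This test took the spread from all 8 libraries as if they were replicates, so it compares libraries and not conditions. No source says that the libraries came from separate experiments, so p-values measure only the spread between these libraries, which may be technical. In RNA from whole cultures, a change in the number of cells that carry an mRNA and a change in its amount per cell cannot be told apart.

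At 15 min none of the 8 was called higher, when 0.327% of all genes were called higher and 0.177% lower. At 30 min 1 was called higher, against 1.18% of all genes, and at 45 min 3, against 4.01%. In the 60 and 75 min libraries 5 were called higher, against 3.58% and 5.11%, and in the 90 and 120 min libraries 6, against 6.14% and 7.65%. None was called lower at any time, while the share of all genes called lower went from 0.221% and 1.48% in the 30 and 45 min libraries through 2.37% and 3.23% in the 60 and 75 min libraries to 4.25% and 6.85% in the 90 and 120 min libraries. The median log2 ratio of the 8 genes was 0.95 at 60 min and 2.17 at 120 min, whereas the median of all 12152 genes compared was -0.01 at 120 min, with 5 to 95% of genes between -1.10 and 1.15.

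**Figure D1:**
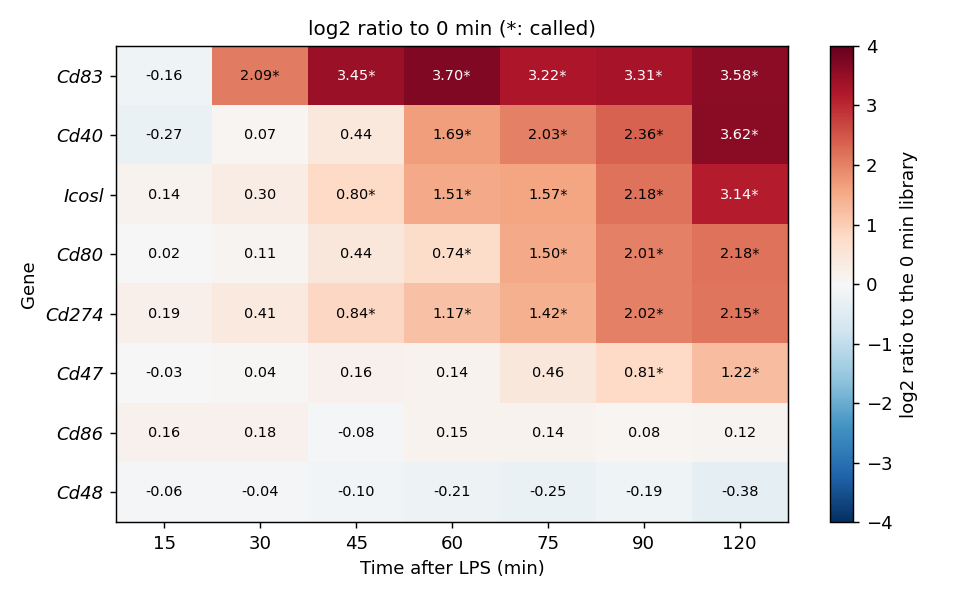
log2 ratio of each of the 8 genes (rows) to the 0 min library at each time after LPS in minutes (columns), from lower in blue to higher in red, with called values marked by an asterisk. Cd83 is called first, at 30 min with 2.09, and Cd47 last, at 90 min with 0.81, while no value of Cd86 or Cd48 is called.

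Because the time points form a series, a straight line over time was also fitted to all 12501 genes with enough reads, with edgeR's quasi-likelihood test and Benjamini-Hochberg adjustment over all of them. Of the 8 genes, 6 had an upward slope and 1, Cd48, a downward slope at an adjusted p under 0.05, against 23.3% of all genes upward and 23.1% downward. Upward slopes ranged from 0.63 log2 per h for Cd47 to 2.00 for Cd40. The median slope was 1.25 over the 8 genes and -0.000674 over all genes tested. This fit uses all 8 libraries with 6 residual degrees of freedom, so that the scatter around the line takes the place of replicates.

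**Figure D2:**
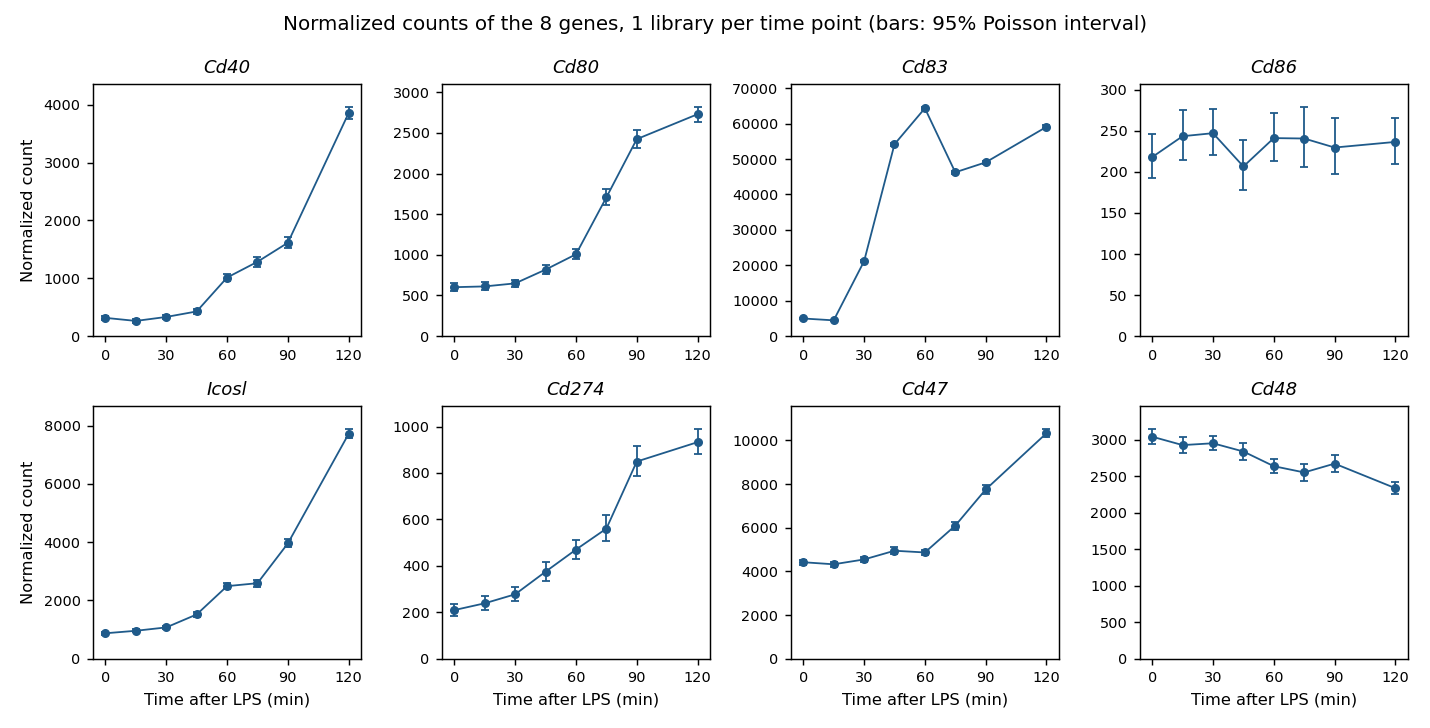
Normalized count (vertical axes, each from 0) against minutes after LPS for each of the 8 genes, with 1 point per library and bars for the 95% Poisson interval, which covers counting error only. Cd83 peaks at 60 min at 64334, Cd40 and Icosl climb most in the last 30 min, Cd47 climbs from 4868 at 60 min to 7752 at 90 min and 10329 at 120 min, and Cd86 stays between 207 and 247.

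Cd40 (gene ID 21939, chr2:165055614-165071654, GRCm38), the receptor through which T cell help reaches the macrophage, had the steepest slope of the 8. It had normalized counts of 315, 262, 331 and 426 in the libraries from 0 to 45 min, and of 1012, 1286, 1615 and 3860 in those of 60, 75, 90 and 120 min. The first 4 libraries were low, and every later library lay above all of them. At 120 min the ratio to 0 min was 12.3 (95% counting interval 11.03 to 13.7). The slope was 2.00 ± 0.168 log2 per h (SE, n = 8 libraries; edgeR quasi-likelihood test, adjusted p = 9.62e-05). The 2 largest steps between neighbouring libraries were from 45 to 60 min, at 2.38-fold (2.11 to 2.68), and from 90 to 120 min, at 2.39-fold (2.25 to 2.54). The last step covered a longer interval than the others. Both of these largest steps were called. Between them Cd40 also rose beyond counting error, at 1.27-fold (1.16 to 1.39) from 60 to 75 min and 1.26-fold (1.15 to 1.37) from 75 to 90 min, without a call. Only 19.7% of the increase between 0 and 120 min had been reached by 60 min.

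AU-rich elements in the 3′ untranslated region (3′UTR), whose core is the pentamer AUUUA, are bound by proteins that control mRNA decay and translation, and they were a central subject of the study. They are therefore shown for the genes that carry them. The part of the annotated 3′UTR of Cd40 within the RefSeq gene, 741 bases long, held 4 pentamers (5.40 per kb). The median was 1.2 per kb over 10473 genes with a 3′UTR, cut in the same way, of which 65.8% had at least 1. In the stretches below (RNA written as DNA, GENCODE annotation, GRCm38, plus strand), capitals mark the pentamer. They lie at chr2:165071254-165071283 for Cd40, chr19:29388065-29388094 for Cd274, chr13:43802150-43802179 for Cd83 and chr10:78078301-78078330 for Icosl, each within the 3′UTR.
Cd40: taaatctgtaattATTTAtacaatgacatc
Cd274: attaATTTAataaatatttttATTTAttaa
Cd83: gccagtgggaaatATTTAgcaaataatttc
Icosl: gaagcctgactttATTTAggtctcaggcta

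Cd274 had the highest number, with 11 pentamers in 2683 bases (4.10 per kb) and 1 copy of the nonamer that extends the pentamer by U bases on either side, which 7.07% of genes had. Cd83 had 2 pentamers and Icosl had 1, whereas Cd80, Cd86, Cd47 and Cd48 had none in the part of their 3′UTRs that lies within the RefSeq gene. The pentamer was found in 4 of the 8 mRNAs, against 65.8% of all genes with a 3′UTR. A match of these letters is a description of the sequence and was not tested as a binding site.

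Cd80 (gene ID 12519, chr16:38457430-38495958) and Cd86 (gene ID 12524, chr16:36568956-36666158), which share their receptors, behaved differently. Normalized counts of Cd80 were 601, 611 and 649 in the first 3 libraries (0, 15 and 30 min), then 818 after 45 min, 1006 after 60 min, and 1707, 2424 and 2730 in the last 3 (75, 90 and 120 min). Cd80 was thus flat for 30 min and then higher in each later library than in the one before. The ratio at 120 min was 4.54 (4.18 to 4.93) and the slope 1.30 ± 0.13 log2 per h (edgeR adjusted p = 0.000155). Of the 7 steps between neighbouring libraries its 1 called step was from 60 to 75 min, at 1.70-fold (1.56 to 1.84), when 0.744% of all genes were called higher, and the step from 75 to 90 min, at 1.42-fold (1.32 to 1.53), was not called (exact negative binomial test, p = 0.16).

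Cd86 showed no call at any time. The unstimulated library had a normalized count of 218, and the 7 stimulated ones had 244, 247, 207, 241, 241, 230 and 237 from 15 to 120 min, without an order in time. The ratio at 120 min was 1.08, and its interval of 0.914 to 1.29 lay below the ratio of each of the 6 genes called higher. The slope was 0.02 ± 0.0691 log2 per h (edgeR adjusted p = 0.83). With 171 to 302 reads per library, Cd86 was among the least covered of the 8.

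A ratio of 2 genes within a library does not depend on how libraries are scaled. This pair of ratios was chosen after the values had been seen and is given without a test. Per unit of mappable length, Cd80 mRNA exceeded Cd86 mRNA 4.16-fold without LPS (3.60 to 4.82), and 3.79-fold and 3.96-fold in the 15 and 30 min libraries. The ratio went on to 5.97 and 6.30 in the 45 and 60 min libraries, to 10.7 and 15.9 in the 75 and 90 min libraries, and to 17.4 in the last one (15.5 to 19.7). The balance of the B7 pair thus moved towards Cd80 in every library from 45 min on. The level of Cd274 relative to Cd80 moved little by comparison: it was 0.162 at 0 min (0.140 to 0.188), reached 0.218 at 60 min (0.196 to 0.242) and was 0.159 at 120 min (0.149 to 0.170).

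Icosl (gene ID 50723, chr10:78069368-78079525), the ligand of ICOS, rose the most of the 4 B7 ligands followed here. From a normalized count of 874 without LPS it went to 960, 1076 and 1520 in the 15, 30 and 45 min libraries, to 2492 and 2594 in the 60 and 75 min libraries, and to 3960 and 7721 in the 90 and 120 min libraries. Each library was higher than the one before it. The ratio was 1.74 at 45 min (1.60 to 1.89) and 8.83 at 120 min (8.28 to 9.43), and the slope was 1.63 ± 0.094 log2 per h (edgeR adjusted p = 3.22e-05). Like Cd40, Icosl was called higher at 60 min than at 45 min, at 1.64-fold (1.54 to 1.75), and at 120 min than at 90 min, at 1.95-fold (1.87 to 2.03). These 2 were the members called in both steps, in which 1.07% and 0.85% of all genes were called higher. The share of Rn45s fell in both steps, and its part in them was not tested.

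Cd274 (gene ID 60533, chr19:29362107-29388095), which encodes PD-L1, rose without a called step. Normalized counts climbed from 210 without LPS through 239, 278 and 375 (15, 30 and 45 min) and 470 and 560 (60 and 75 min) to 849 and 933 (90 and 120 min). None of the 7 steps between neighbouring libraries was called, the largest being from 75 to 90 min at 1.52-fold (1.34 to 1.72; exact negative binomial test, p = 0.11), and 36.0% of the increase had been reached by 60 min, against 19.0% for Cd80 and 23.6% for Icosl. The ratio at 120 min was 4.45 (3.87 to 5.13), within the interval of Cd80, and the slope was 1.2 ± 0.0859 log2 per h (edgeR adjusted p = 6.14e-05). The intervals of Cd274 and Cd80 overlapped at 15, 30, 75, 90 and 120 min but not at 45 and 60 min. At 45 min the ratio was 1.79 (1.512 to 2.12) for Cd274 and 1.36 (1.22 to 1.511) for Cd80. At 60 min it was 2.24 (1.92 to 2.62) for Cd274 and 1.67 (1.52 to 1.84) for Cd80.

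Promoter sequences, 250 bases before to 50 bases after an annotated start site (RefSeq, GRCm38.p6), were matched for 5 of the 8 genes, namely Cd80, Icosl, Cd274, Cd47 and Cd48. Cd40, Cd83 and Cd86 were not matched. The promoters of the 3 B7 ligands that rose are shown, because they differ in composition and in the motifs found. Searched on both strands were the NF-κB consensus by name, TGANTCA (which covers the AP-1 site and its near variants and reads alike on both strands), TGACGTCA, TATAAA and the interferon-stimulated response element (GAAA followed, after any 2 bases, by GAAA), and capitals mark each match. The sequences are chr10:78069118-78069417 for Icosl, chr16:38458683-38458982 for Cd80 and chr19:29367188-29367487 for Cd274, all on the plus strand.
Icosl: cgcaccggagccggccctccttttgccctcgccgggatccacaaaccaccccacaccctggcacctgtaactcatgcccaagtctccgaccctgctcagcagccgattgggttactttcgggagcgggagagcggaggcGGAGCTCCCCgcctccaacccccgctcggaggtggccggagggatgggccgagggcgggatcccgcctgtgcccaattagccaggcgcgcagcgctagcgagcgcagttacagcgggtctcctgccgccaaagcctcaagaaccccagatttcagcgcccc
Cd80: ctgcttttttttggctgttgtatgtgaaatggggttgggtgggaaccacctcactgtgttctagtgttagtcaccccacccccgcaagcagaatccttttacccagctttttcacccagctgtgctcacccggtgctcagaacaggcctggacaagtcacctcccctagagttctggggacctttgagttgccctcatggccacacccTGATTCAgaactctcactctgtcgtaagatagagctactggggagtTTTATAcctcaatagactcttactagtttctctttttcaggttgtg
Cd274: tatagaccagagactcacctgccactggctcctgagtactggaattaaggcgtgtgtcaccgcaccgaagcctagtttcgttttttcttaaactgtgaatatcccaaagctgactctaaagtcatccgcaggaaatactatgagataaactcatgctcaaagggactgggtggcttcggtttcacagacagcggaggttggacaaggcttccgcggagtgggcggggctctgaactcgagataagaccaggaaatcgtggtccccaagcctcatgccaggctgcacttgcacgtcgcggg

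The Icosl promoter held 1 match to the NF-κB consensus, on the opposite strand at -111 to -102 from the start site, as did 8.46% of 32851 promoters. The Cd80 promoter held a variant of TGANTCA, with T at the free base, at -42 to -36 (7.81% of promoters) and TATAAA on the opposite strand at 4 to 9 (13.6%). No match was found in this window for Cd274, Cd47 or Cd48, where TGACGTCA occurred in 1.79% and the interferon element in 3.44% of all promoters. The promoters of Cd47 and Icosl had 74 and 68% GC with 35 and 26 CpG, above the medians of 52.7% and 7 over all promoters. Cd80 and Cd48 had 49.7 and 47.3% GC with 3 and 7 CpG, and Cd274 had 52.7% with 15 CpG. Among these windows, genes that rose thus had both CpG-poor and CpG-rich sequence. For Cd80, Cd274, Cd47 and Cd48 the window lay inside the annotated gene, and sequence further upstream was not searched.

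Cd83 (gene ID 12522, chr13:43785112-43803133) was the first of the 8 to be called higher. Its normalized counts were 4957 without LPS, 4435 after 15 min and 21133 after 30 min, and in the libraries from 45 to 120 min they were 54168, 64334, 46243, 49055 and 59076. The first 2 libraries were low, the 30 min library lay in between, and the 5 later ones were high. The ratio to 0 min was 4.26 at 30 min (4.14 to 4.39), 10.9 at 45 min (10.6 to 11.2) and 13.0 at 60 min (12.6 to 13.3). Cd83 was the 1 gene of the 8 called higher at 30 min than at 15 min, at 4.76-fold (4.62 to 4.92), and at 45 min than at 30 min, at 2.56-fold (2.52 to 2.602), when 0.89% and 1.26% of all genes were called higher. From 75 to 90 min, when 0.257% of all genes were, none of the 8 was called. The dip to 75 min, at 0.719-fold (0.709 to 0.728), exceeded counting error but was not called (exact negative binomial test, p = 0.201), and the ratio at 120 min was 11.9 (11.6 to 12.2). A straight line described this course poorly: the slope of 1.83 ± 0.625 log2 per h passed the test (edgeR adjusted p = 0.0402) but not when the 0, 15, 30, 75 or 90 min library was left out, with an edgeR adjusted p between 0.0595 and 0.16. With the share of Rn45s as a covariate it was 0.0576, and in the 0, 30, 60 and 120 min libraries alone 0.135.

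Cd47 (gene ID 16423, chr16:49851328-49912503) was called last and rose least of the 6. The 5 libraries up to 60 min had normalized counts of 4420, 4326, 4548, 4947 and 4868, and the 75, 90 and 120 min libraries had 6097, 7752 and 10329. Up to 60 min only 7.57% of the increase had been reached, and the last 3 libraries were the highest. The ratio was 1.75 at 90 min (1.69 to 1.82) and 2.34 at 120 min (2.26 to 2.41), with a slope of 0.63 ± 0.0811 log2 per h (edgeR adjusted p = 0.000435).

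Cd48 (gene ID 12506, chr1:171681245-171705258) drifted down. Normalized counts were 3041, 2926, 2951 and 2838 in the libraries from 0 to 45 min and 2637, 2552, 2673 and 2336 in those from 60 to 120 min, so that the first 4 libraries all lay above the last 4. The ratio at 120 min was 0.768 (0.731 to 0.807), which was beyond counting error but short of the limit for a call (log2 ratio -0.38, exact negative binomial test, p = 0.276). Along the whole series the slope was -0.18 ± 0.0341 log2 per h (edgeR adjusted p = 0.00287), with an adjusted p of 0.0529 in the 0, 30, 60 and 120 min libraries alone. The size of this decline was small beside the upward slopes, as the plot of slopes shows.

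**Figure D3:**
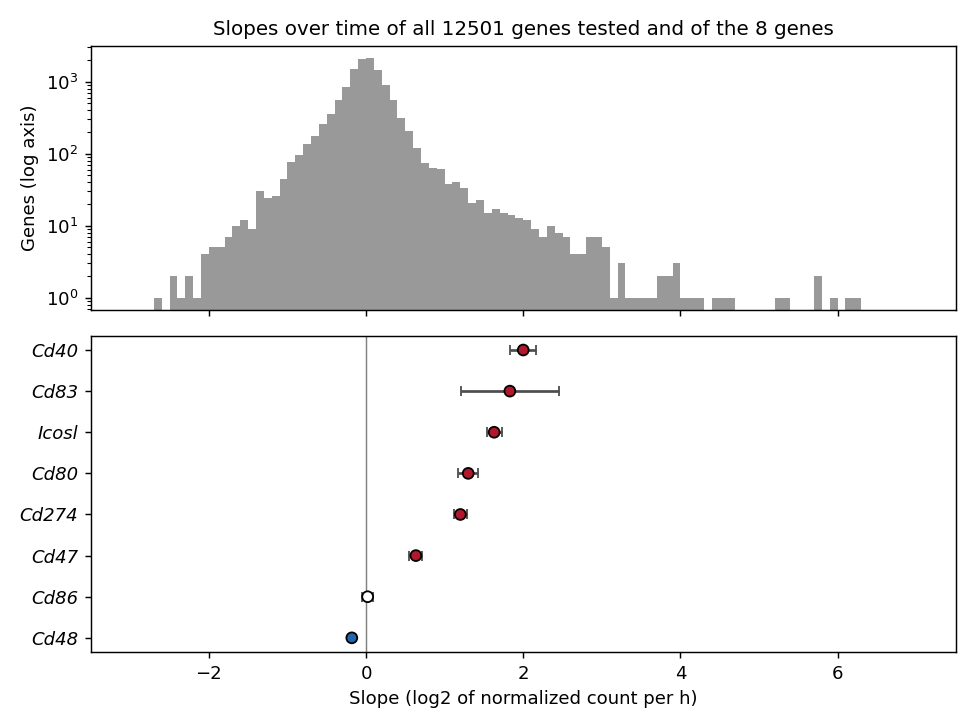
Upper panel, number of genes (log axis) by slope in log2 of normalized count per h for all 12501 genes tested. Lower panel, slope with its SE for each of the 8 genes, red for upward and blue for downward at an adjusted p under 0.05 and white for neither. Cd40 lies highest at 2.00, Cd83 has the widest error at 0.625, Cd86 sits at 0.02 and Cd48 at -0.18.

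Levels can be compared between genes only per length, for which reads per kilobase of mappable transcript, scaled to the library's total (rpkm), were computed. At 0 min the order was Cd48 with 24.0 rpkm, Cd83 with 18.3, Cd47 with 7.63, Cd80 with 3.26, Icosl with 2.83, Cd40 with 0.923, Cd86 with 0.784 and Cd274 with 0.530. The intervals of Cd40 (0.831 to 1.02) and Cd86 (0.691 to 0.886) overlapped, and those of Cd80 (3.03 to 3.51) and Icosl (2.66 to 3.01) nearly touched. At 120 min the order was Cd83 with 189 rpkm, Icosl with 21.7, Cd48 with 16.0, Cd47 with 15.5, Cd80 with 12.9, Cd40 with 9.84, Cd274 with 2.05 and Cd86 with 0.740. Cd48 (15.5 to 16.6) and Cd47 (15.2 to 15.8) overlapped here. By these lengths Cd48, first of the 8 at rest, was below Cd83 and Icosl at 120 min. Cd40 moved from just above Cd86 to far above it, and Cd274 passed Cd86. The places of Cd47, Cd40, Cd48, Icosl and Cd80 at 120 min depended on the length used. Counting only sequence within the RefSeq gene, Cd47 was at 14.7 rpkm at 0 min and 29.8 at 120 min. Cd40 was then at 1.61 and 17.1, and both were above Cd48 at 120 min. At that time Cd47 was also above Icosl, at 22.3 rpkm by this length, and Cd40 above Cd80, at 12.9 rpkm. Reads were mapped to RefSeq transcripts, so sequence beyond the RefSeq gene would have collected none. The first values of Cd47 and Cd40 are therefore likely too low.

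**Figure D4:**
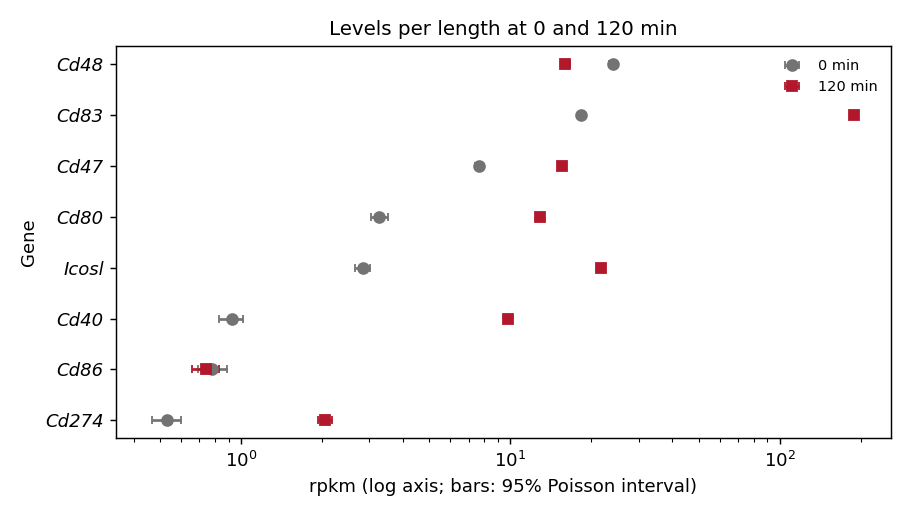
Level in rpkm (log axis) of each of the 8 genes at 0 min (grey circles) and 120 min (red squares), with bars for the 95% Poisson interval, ordered by level at 0 min. Cd83 reaches 189 rpkm, Cd86 is at 0.784 and 0.740, and Cd48 is the gene with a clearly lower level at 120 min, at 16.0 against 24.0 rpkm. Lengths are those of GENCODE transcripts, and Cd40, Cd47, Cd83 and Icosl have higher levels with the RefSeq gene alone as the length.

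The mRNAs closest to each of the 8 in course, by the root mean square difference in log2 ratio to 0 min over the 7 stimulated libraries among 10494 genes, were as follows. Cd40 was nearest to Oasl1 (0.227), Tmem171 (0.258) and Fas (0.297), the last a death receptor of the same superfamily, with log2 ratios of 4.03, 3.54 and 3.49 at 120 min. Icosl was nearest to Ikbke (0.200), Slc15a3 (0.227) and Ifih1 (0.228), the first an IκB kinase-related kinase and the last the RNA sensor MDA5. Cd83 was nearest to Rasgef1b (0.257), the inflammasome sensor Nlrp3 (0.297) and Marcksl1 (0.332), whose log2 ratios at 60 min were 3.73, 3.61 and 3.21. These lists did not overlap, which with 3 genes each out of 10494 would mostly hold for unrelated lists too.

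Cd80 was nearest to Gnat3 (0.140), Plagl2 (0.153) and Kctd12 (0.206). Cd274 was nearest to Lilrb4 (0.138), Pvr (0.169) and Zfp703 (0.184), of which Lilrb4 is an inhibitory receptor of myeloid cells and Pvr the ligand of TIGIT. Cd47 was nearest to 5430437J10Rik (0.0789), Rfwd2 (0.0882) and Slc12a4 (0.0884). Cd86 and Cd48, which moved little, lay within 0.07 and 0.04 of their 3 nearest genes, Ctr9, Oaz1 and Hmgb1 for Cd86 and Tcp11l1, Taf6 and 2610203C22Rik for Cd48.

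Related genes moved in both directions. Of 54 genes in 6 lists, 36 had a normalized count averaging 10 or more, 11 of the 54 were called higher at 120 min and 6 lower. Of 38 that could be tested over time, 15 had an upward and 8 a downward slope. Among all genes these shares were 7.65% higher and 6.85% lower at 120 min, and 23.3% upward and 23.1% downward. Of 4 other B7 family genes, only 2 had a normalized count averaging 10 or more, and both of these had a downward slope. Cd276, at -0.21 ± 0.0334 log2 per h (edgeR adjusted p = 0.00108), was not called at 120 min. Of the 4, 1 was called lower, and none was higher. This was 4632428N05Rik, which encodes the inhibitory B7 relative VISTA, with 17070 reads without LPS and 5040 in the last library, a ratio of 0.280 (0.271 to 0.289) and a slope of -0.97 ± 0.0959 log2 per h (edgeR adjusted p = 0.000145). It thus moved opposite to Cd80, Icosl and Cd274.

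Of 10 genes of CD40 signalling, 5 were called higher and none lower, and 7 had an upward and 1 a downward slope. Traf1, an adaptor of TNF receptors, was at 36.4 times its level at 0 min (35.0 to 37.9), and Relb, a subunit of NF-κB, at 4.04 times (3.88 to 4.20). For all genes, 7.65% were called higher at 120 min and 23.3% had an upward slope. Of 7 TNF superfamily ligands, 1 was called higher, Tnfsf9, the ligand of 4-1BB, at 3.75-fold (3.62 to 3.89), and 5 had a mean under 10.

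Of 9 genes for binding partners of the 8 proteins, 1 was called higher and 2 lower at 120 min. Pdcd1, which encodes the PD-L1 receptor PD-1, had 285 reads at 120 min and 16 to 60 in the other 7 libraries, a ratio of 4.91 (3.67 to 6.68). Cd28 went from 81 to 34 reads, a ratio of 0.398 (0.258 to 0.60), though its slope did not pass (edgeR adjusted p = 0.0598). Sirpa, which encodes the CD47 receptor SIRPα, went from 56831 to 28713 reads, a ratio of 0.479 (0.472 to 0.485). Its slope was -0.56 ± 0.078 log2 per h (edgeR adjusted p = 0.000666). Of the 6 T cell markers, Lck had 157 reads at 0 min and 134 at 120 min, Cd3d 10 and 8, Cd4 6 and 6, Cd8a 3 and 4, Cd3e 0 and 2, and Cd3g none. Their part in the values of Pdcd1 and Cd28 was not tested. Of 7 other SLAM family genes, relatives of Cd48, 1 was called higher, Slamf7, with 6 reads at 0 min and 39 at 120 min (6.16-fold, 2.59 to 17.8).

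Of 17 other inhibitory ligands and receptors, 3 were called higher and 3 lower, and 4 had an upward and 3 a downward slope. For all genes, 7.65% were called higher and 6.85% lower, and 23.3% had an upward and 23.1% a downward slope. Of the 17, 12 had a normalized count averaging 10 or more. Siglecg, among those called higher, had 1 read at 0 min and 16 at 120 min. Lilrb4 was higher at 4.85-fold (4.77 to 4.93), although reads shared with its close relatives were discarded by the counting, so its level is uncertain. Cd200r1, an inhibitory receptor of myeloid cells, was lower at 0.243-fold (0.187 to 0.313), with 304 reads at 0 min and 78 at 120 min. Inhibitory genes as listed thus showed no single direction.

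**Figure D5:**
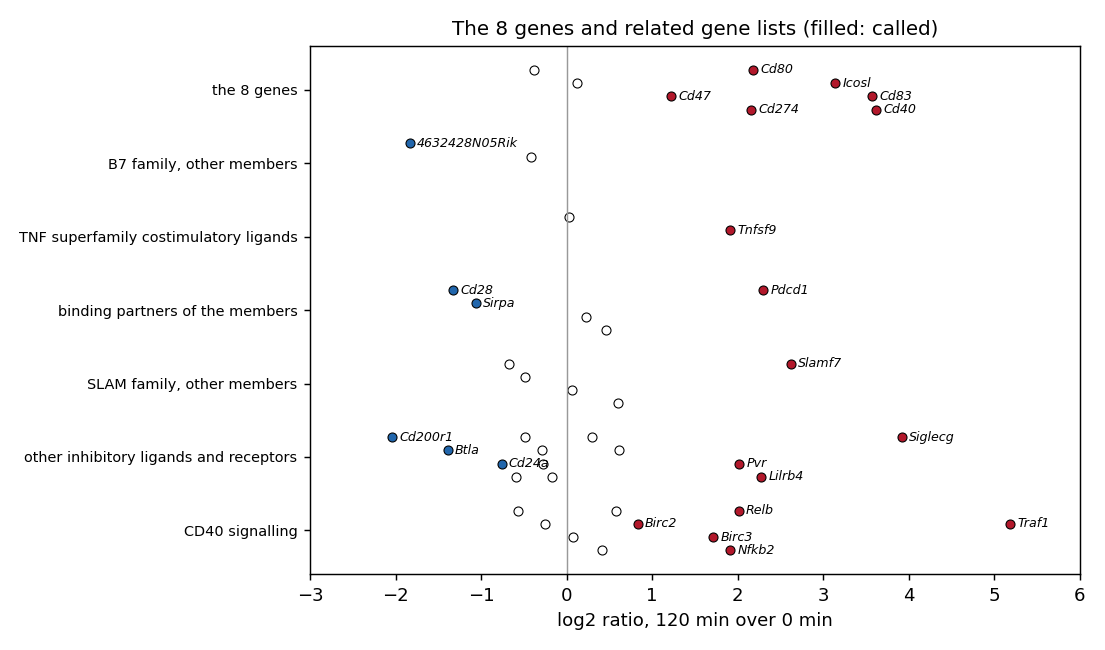
log2 ratio of the 120 min library to the 0 min library for the 8 genes and for 6 lists of related genes (rows; genes whose normalized count averages 10 or more, or with a call), filled red for called higher, blue for called lower and white for not called. Traf1 lies farthest to the right at 5.19 and Cd200r1 farthest to the left at -2.04, and the 8 genes have 6 red points and 2 white ones.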

How the data were processed

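An RNA library from each of 8 cultures of RAW264.7 cells was analysed. The deposited table holds the authors' unnormalized counts of reads for each gene symbol. Per the study's methods, ribosomal RNA was depleted with Ribo-Zero, and reads of 58 bases were mapped by Bowtie to RefSeq transcripts of mm10 with up to 2 mismatches, reads on more than 1 symbol being discarded. A gene whose sequence is shared with others is therefore undercounted. The submitters' processing notes name CASAVA 1.8.2 and DESeq 1.10.1. Total counts ranged from 100250892 to 159077286, which limits precision as the counting intervals show.

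Median-of-ratios size factors, 1 dispersion curve over all libraries (0.0287 + 0.853/mean) and exact negative binomial tests were computed in Python 3.11.15 after the study's settings (unadjusted p under 0.05, log2 ratio beyond 0.5). The trend over time was tested with edgeR 4.0.16 in R 4.3.3 on genes with at least 10 counts in at least 2 libraries, with Benjamini-Hochberg adjustment. Ratios carry exact conditional binomial and rpkm values exact Poisson 95% intervals, which cover counting error only. The rpkm values use total counts and unique 58-mers of GENCODE vM21 transcripts (GRCm38), so their ratios between libraries differ from the normalized ones. Both tests were tested on simulated data: for 120 min against 0 min, 200 of 200 genes changed 4-fold were found among 23143 genes and 21 of 10294 unchanged ones called, and for the linear trend 200 of 200 and 12 of 12323 in 12523 genes. The simulated spread was below the curve fitted to the data, and only genes with a mean of at least 100 were changed. No difference in composition between libraries was simulated. These runs therefore do not show how smaller changes fare in the real libraries.

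Named were the 8 genes, the 2 genes of each list with the largest called log2 ratio at 120 min and a mean of at least 10, and the 3 genes nearest in course to each of the 8 with a mean of at least 100 (log2 after a pseudocount of 1). Sirpa, Siglecg and Cd276 were named beyond this rule, after the values had been seen. All steps between neighbouring libraries were tested, a choice made after the data had been seen. The 8 genes and the lists were chosen with earlier results of these data known. Alternatives were TMM factors, total counts with and without Rn45s, DESeq2 1.42.0, Benjamini-Hochberg adjustment, a log2 limit of 1 with and without a test, other filters, a quadratic term, Rn45s as a covariate, subsets of libraries and other lengths, of which the RefSeq gene span was chosen after the data had been seen.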

Additional observations from a re-analysis of the deposited data

How the results depend on the processing

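The call of 6 genes higher and none lower at 120 min held under every alternative run, with the same 6 genes each time. The log2 ratio of Cd86 at 120 min, which was not called, turned to -0.0843 with total counts and -0.0761 with total counts without Rn45s. These scales moved the log2 ratios of all genes by up to -0.33 (75 min, total counts) and by -0.20 and -0.19 at 120 min. Over all genes, total counts gave 673 calls higher and 1313 lower, and leaving out Rn45s gave 757 and 1491, against 1198 and 1073. The call counts were 606 and 490 with Benjamini-Hochberg adjustment, 766 and 676 with a log2 limit of 1, and 2148 and 1754 with that limit and no test.

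The count of upward slopes among the 8 genes was 5 to 6 with each library left out, 5 with Rn45s as a covariate and 5 in the 0, 30, 60 and 120 min libraries alone, Cd83 being the gene lost. The count of downward slopes was 1, except 0 in those 4 libraries, where Cd48 was lost with fewer samples. Over all genes, 1663 slopes were upward and 5132 downward with total counts without Rn45s, against 2911 and 2888, and 1475 and 1041 in the 4 libraries. Spike-in scaling was not run, because the table used here has no spike-in rows. No paired analysis was possible because each time point has 1 library. With 1 library per time point, a difference between libraries cannot be told apart from a difference between cultures.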
